A study of Mus musculus with 8 samples.

Results

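Genes of the lipoxygenase and leukotriene pathway were followed in exudate leukocytes of mice with zymosan peritonitis, a self-limited inflammation of the peritoneal cavity raised by yeast cell wall particles. The 10 genes are Alox5, Alox5ap, Alox15, Alox12, Lta4h, Ltc4s, Pla2g4a, Ephx2, Cysltr1 and Cysltr2. They were taken by name, and are 10 of the 49671 genes listed. All 10 were listed in every library and had enough reads to be tested. Exudates came from 8 male wild-type C57BL/6 mice aged 6 to 8 weeks, 4 in each group, and 1 library was made from each mouse. The SPM group received a panel of 5 specialized pro-resolving mediators, the resolvins RvD1, RvD2, RvD5 and RvE2 with the maresin MaR1. Each was given into the peritoneum at 0.1 ng per injection, first on day 0, then on days 2 and 5, on days 7 and 9, and a sixth time on day 12 together with 1 mg of zymosan A. The vehicle group received 0.01% ethanol in 1 mL of saline in its place, with the same zymosan. Exudates were collected 12 h after zymosan, so there is no uninflamed group and both groups carry the zymosan response.

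Leukotrienes are lipid mediators that leukocytes make from arachidonic acid within minutes of activation. Cytosolic phospholipase A2 frees arachidonic acid from membrane phospholipids, the activating protein FLAP presents it to arachidonate 5-lipoxygenase, and the leukotriene A4 so formed is either hydrolysed to leukotriene B4, a strong attractant of neutrophils, or joined to glutathione to give the cysteinyl leukotrienes, which act on smooth muscle and vessels. The same 5-lipoxygenase and the other lipoxygenases also take part in making pro-resolving mediators, among them the lipoxins and the resolvins and maresins, the classes from which the treatment panel was drawn.

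Reads assigned to genes numbered 15154054 to 21114301 in a mouse, and 23051 to 27592 genes were detected in a mouse. The labelled material, mixed leukocytes, was checked against marker genes on the TPM scale, which is corrected for gene length. S100a9 (mean 41490 TPM) and S100a8 (17260 TPM), granulocyte calcium-binding proteins, stood far above Fn1 (432 TPM) and F13a1 (399 TPM) of the monocyte list and Adgre1 (318 TPM) and Prg4 (26.04 TPM) of the resident macrophage list. B cells were represented by Cd79a (355 TPM) and Cd79b (253 TPM), and mast cells by Cma1 (60.5 TPM) and Tpsb2 (38.4 TPM). In the platelet list Pf4 (141 TPM) and Ppbp (26.4 TPM) were found, while its other genes were low. Itga2b was at 0.995 TPM and Gp6 at 0.511 TPM, and Gp9, Treml1 and Gp1bb had 11 to 20 counts each over all libraries. Dendritic cells had Ccr7 (114 TPM) and Flt3 (4.03 TPM), T and NK cells Trac (14.5 TPM) and Cd3d (7.79 TPM), fibroblasts Dcn (15.1 TPM) and Col1a1 (9.56 TPM), and mesothelial cells Msln (1.87 TPM) and Upk3b (1.41 TPM). The other dendritic cell genes, Zbtb46 (1.59 TPM), Cd209a (0.976 TPM) and Xcr1 (0.330 TPM), were low, so most of that list's level was Ccr7. In the eosinophil list Ccr3 (24.6 TPM) and Il5ra (7.38 TPM) were found, while the granule protein Epx had 3 counts over all libraries and Siglecf was not found under that symbol.

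The promoters of Alox5 and Alox12 are printed here because these genes are the highest and the lowest lipoxygenase among the 10 in these exudates. Each line gives the 250 bases before the RefSeq start site (GRCm38.p6, minus strand), 5′ to 3′, at chr6:116461179-116461428 for Alox5 and at chr11:70255371-70255620 for Alox12. Capitals mark the GC box GGGCGG (or CCGCCC on the other strand) and the PU.1 core GAGGAA (or TTCCTC).
Alox5: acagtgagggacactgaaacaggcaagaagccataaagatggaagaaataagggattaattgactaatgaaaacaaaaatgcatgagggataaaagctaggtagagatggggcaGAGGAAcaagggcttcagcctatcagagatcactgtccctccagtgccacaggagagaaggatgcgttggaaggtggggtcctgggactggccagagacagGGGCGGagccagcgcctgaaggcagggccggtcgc
Alox12: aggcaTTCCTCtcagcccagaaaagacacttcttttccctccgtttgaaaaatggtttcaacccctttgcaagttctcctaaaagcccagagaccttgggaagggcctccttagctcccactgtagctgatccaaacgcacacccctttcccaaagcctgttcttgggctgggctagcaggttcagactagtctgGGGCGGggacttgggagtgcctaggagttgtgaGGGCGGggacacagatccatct
Alox5 held 1 GC box, at -35 to -30 from the start site, and 1 PU.1 core, at -136 to -131. Alox12 held 2 GC boxes, beginning at -55 and -22, and 1 PU.1 core, beginning at -245. A GC box was present in 32.7% and a PU.1 core in 23.3% of the 32851 RefSeq promoter windows of this length, so neither match sets these genes apart. The TATA box TATAAA (or TTTATA), found in 12.4% of windows, was in neither. The motifs do not overlap each other in these windows. Promoters of 6 of the 10 genes were in the RefSeq table. Of the remaining 4 (Lta4h, Ltc4s, Pla2g4a and Cysltr2), Lta4h held a PU.1 core, and Pla2g4a held a TATA box at an internal start 38851 bases from the gene's start but not at that start. These matches describe letters and were not tested as binding sites.

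Ordered by level, the pathway was led by its activating protein and not by an enzyme. The deposited TPM of Alox5ap had a median of 1644 over the 8 mice (range 1511 to 2372), which placed it at percentile 99.8 of the 21423 genes tested. Alox5, the enzyme that FLAP serves, followed at a median of 60.7 TPM (40.4 to 75.1). A middle group held Lta4h at 22.1 TPM (19.5 to 25.4), Ltc4s at 17.4 TPM (7.72 to 25.2), Pla2g4a at 14.6 TPM (11.9 to 16.1), Alox15 at 14.5 TPM (8.49 to 21.6) and Cysltr1 at 9.71 TPM (7.99 to 13.4). The lowest genes were Ephx2 at 1.17 TPM (0.538 to 1.85), Cysltr2 at 1.14 TPM (0.841 to 3.42) and Alox12 at 0.160 TPM (0.0419 to 0.368).

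In this order 4 steps were seen in 8 of 8 mice with ranges that did not overlap. Median TPM was 27.1-fold higher for Alox5ap than for Alox5, 2.75-fold higher for Alox5 than for Lta4h, 8.29-fold higher for Cysltr1 than for Ephx2 and 7.12-fold higher for Cysltr2 than for Alox12. For each of these steps a two-sided exact sign-flip permutation test over 8 mice gave p = 0.00781, the smallest it can give, and 0.0176 after Benjamini-Hochberg adjustment over the 9 neighbouring pairs. The neighbours were set by the order of these same values. TPM also divide by merged exon length (1420 bases for Alox5ap, 4106 for Alox5, 6102 for Lta4h), and the test over mice does not measure an error in those lengths. Lta4h was above Ltc4s in 6 of 8 mice and Alox15 above Cysltr1 in 5 of 8, and these steps did not pass after adjustment (exact permutation test, adjusted p = 0.0563 and 0.0938). Ltc4s and Pla2g4a, Pla2g4a and Alox15, and Ephx2 and Cysltr2 could not be put in order beyond their spread (higher in 5, 4 and 5 of 8 mice).

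**Figure D1:**
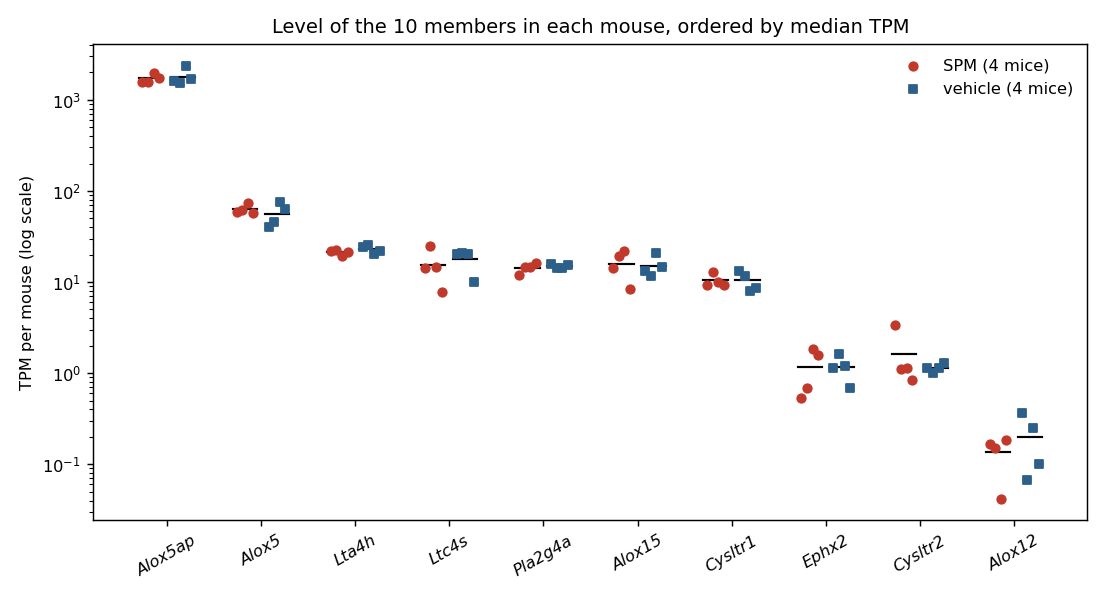
Deposited TPM (log axis) of the 10 genes in each of the 4 SPM mice (circles) and 4 vehicle mice (squares), with black lines at the group means and genes ordered by median TPM. Alox5ap lies above 1511 TPM in every mouse and Alox12 below 0.368 TPM, and the groups overlap for every gene.

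The comparison of the groups asked whether repetitive SPM dosing altered transcripts of the enzymes and receptors. None of the 10 genes passed the test. After Benjamini-Hochberg adjustment over all genes tested, edgeR called 0 of the 10 (smallest adjusted p = 0.794), as it called 0.0% of all genes. At an unadjusted p under 0.05 the number was also 0 of 10 with edgeR, with DESeq2 and with limma on log2(TPM + 1), beside 6.08% of all 21423 genes with edgeR, 3.1% of 35056 genes with DESeq2 and 1194 of 21423 genes with limma. The groups overlapped for each of the 10 genes, while they were separate in CPM for 3.83% of genes. The fold change was above 0 for 3 genes and below 0 for 7, with a median log2 fold change of -0.09 against -0.02 over all genes tested. The median size of the log2 fold change, regardless of sign, was 0.12, against 0.18 over all genes tested and 0.12 over the 12880 genes with a mean of at least 1 CPM, a level that 7 of the 10 reached. Because the exudate is a mixture, a lower transcript level in fewer cells of a type and less RNA per cell cannot be told apart in any of the values that follow.

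**Figure D2:**
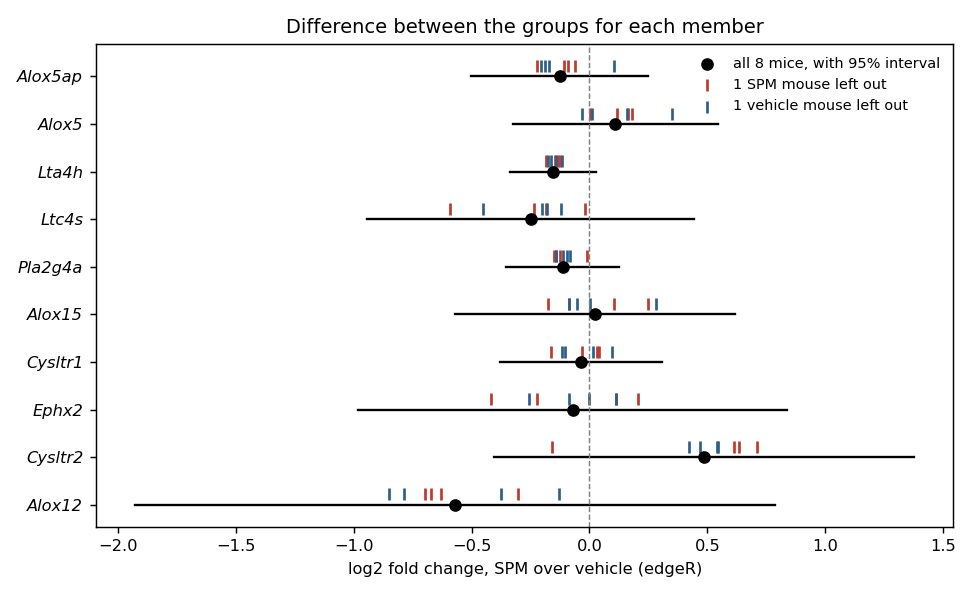
Log2 fold change of SPM over vehicle for each gene from edgeR (black points, 4 against 4 mice) with 95% intervals (black lines), and the value with 1 SPM mouse (red ticks) or 1 vehicle mouse (blue ticks) left out. Every interval crosses 0, the narrowest being that of Lta4h (-0.34 to 0.03) and the widest that of Alox12 (-1.93 to 0.78).

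Release of the substrate was represented by Pla2g4a (ENSMUSG00000056220, chromosome 1 from 149829618 to 149961290 of GRCm38, minus strand), which encodes cytosolic phospholipase A2 alpha. TMM-normalized CPM, the count scaled to a common library size, was 25.7, 32.5, 33.8 and 35.01 in SPM mice 1 to 4, and 35.5, 31.0, 36.4 and 34.4 in vehicle mice 1 to 4. SPM mouse 1 was the lowest of the 8, and the other SPM mice lay within the vehicle range. The group means were 31.8 ± 4.18 and 34.3 ± 2.34 CPM (SD, n = 4 each). The log2 difference in edgeR was -0.11 (SE 0.11, 95% interval -0.35 to 0.13, adjusted p = 0.868 after Benjamini-Hochberg), and without SPM mouse 1 it was -0.01.

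Oxygenation at carbon 5 needs Alox5ap (ENSMUSG00000060063, chromosome 5 from 149264767 to 149288153) and Alox5 (ENSMUSG00000025701, chromosome 6 from 116410077 to 116461178, 12 merged exons). Alox5ap was measured at 755, 789, 1009 and 838 CPM after SPM dosing (mice 1 to 4) and at 801, 729, 1334 and 840.1 CPM after vehicle. Vehicle mouse 3 was the highest and vehicle mouse 2 the lowest, so the vehicle range enclosed the whole SPM group. The means were 848 ± 113 CPM for SPM and 926 ± 276 CPM for vehicle (SD, n = 4 each), and edgeR gave a log2 difference of -0.13 (SE 0.17, 95% interval -0.50 to 0.25, adjusted p = 0.910 after Benjamini-Hochberg). Without vehicle mouse 3 the sign turned, to 0.10. Of the merged exon length of Alox5ap, 189 bases (13.3%) are shared with Gm19719 on the opposite strand, a gene with 1397 counts in all. The strand setting of the counting was not given in the sources used here, so reads in that stretch are uncertain.

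Alox5 was at 82.6, 89.3, 109.8 and 79.3 CPM in the SPM mice and at 57.9, 62.9, 122 and 92.0 CPM in the vehicle mice, in the same order. All 4 SPM mice were above vehicle mice 1 and 2, and all 4 were below vehicle mouse 3, so the groups overlapped. Vehicle mice varied more, with means of 90.3 ± 13.7 CPM for SPM and 83.7 ± 29.7 CPM for vehicle (SD, n = 4 each). The log2 difference was 0.11 (SE 0.20, 95% interval -0.33 to 0.54, adjusted p = 0.941 from edgeR after Benjamini-Hochberg). Leaving out vehicle mouse 3 gave 0.35 with an unadjusted p of 0.0451 from edgeR, a level that 7.16% of 20547 genes passed in the same fit, and leaving out vehicle mouse 1 gave -0.03.

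The hydrolase of leukotriene A4, Lta4h (ENSMUSG00000015889, chromosome 10 from 93453411 to 93484875, plus strand, 19 merged exons), varied little between the mice of a group in CPM. Its values were 45.4, 48.1, 42.7 and 44.6 CPM after SPM dosing, and 51.6, 52.6, 49.2 and 47.8 CPM after vehicle. No SPM mouse was above the vehicle median, and the groups overlapped only through SPM mouse 2, which was just above vehicle mouse 4. Means were 45.2 ± 2.24 and 50.3 ± 2.19 CPM (SD, n = 4 each). In edgeR the log2 difference was -0.15 (SE 0.08, 95% interval -0.34 to 0.03, unadjusted p = 0.0885, adjusted p = 0.794 after Benjamini-Hochberg). A two-sided exact permutation test of the 70 arrangements gave p = 0.0571, where 0.0286 is the smallest possible. The sign was the same under every alternative run, with an unadjusted p between 0.0665 and 0.297.

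Ltc4s, leukotriene C4 synthase (ENSMUSG00000020377, chromosome 11 from 50236469 to 50238616, minus strand), had 3.57, 6.51, 3.87 and 1.94 CPM in the SPM mice and 5.20, 5.24, 5.97 and 2.59 CPM in the vehicle mice. The number 4 mouse was the lowest in each group, and SPM mouse 2 was above all vehicle mice. Means of 3.97 ± 1.89 CPM (SPM) and 4.75 ± 1.48 CPM (vehicle; SD, n = 4 each) gave a log2 difference of -0.25 (SE 0.32, 95% interval -0.94 to 0.44, adjusted p = 0.903, edgeR with Benjamini-Hochberg adjustment). With SPM mouse 2 left out the value was -0.59 and with SPM mouse 4 left out -0.02. Of its exon length 192 bases (26.1%) are shared with Gm26542 on the opposite strand, which had 139 counts.

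The remaining lipoxygenases were Alox15 (ENSMUSG00000018924, chromosome 11 from 70344152 to 70352031), whose product is also a precursor of lipoxins and resolvins, and Alox12 (ENSMUSG00000000320, chromosome 11 from 70241457 to 70255353), best known from platelets. Alox15 ranged widely within each group, at 11.8, 16.7, 19.1 and 7.10 CPM in SPM mice and 11.3, 9.72, 20.0 and 12.9 CPM in vehicle mice. Mouse 3 was the highest in both groups, and SPM mouse 4 was the lowest of all. With means of 13.7 ± 5.32 and 13.5 ± 4.56 CPM (SD, n = 4 each), the edgeR log2 difference was 0.02 (SE 0.28, 95% interval -0.57 to 0.62, adjusted p = 0.996 after Benjamini-Hochberg). It had no stable sign, running from -0.17 to 0.28 when single mice were left out. Alox12 had 38 counts over the 8 libraries, 1 to 11 in a mouse, and its difference of -0.57 (SE 0.63, 95% interval -1.93 to 0.78) was not detectable at this depth.

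Ephx2, the soluble epoxide hydrolase that opens fatty acid epoxides (ENSMUSG00000022040, chromosome 14 from 66084377 to 66124500), had 126 counts in all. It lay between 0.371 and 1.35 CPM in SPM mice and between 0.489 and 1.122 CPM in vehicle mice, so the vehicle group fell inside the SPM range. The edgeR log2 difference was -0.07 (SE 0.42, 95% interval -0.98 to 0.84), and it ran from -0.42 to 0.21 when single mice were left out.

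Of the receptors for cysteinyl leukotrienes, Cysltr1 (ENSMUSG00000052821, chromosome X from 106574346 to 106603679) was at 16.1, 23.5, 18.5 and 16.5 CPM in SPM mice and at 24.0, 20.4, 16.3 and 15.7 CPM in vehicle mice. The groups covered nearly the same range, with means of 18.6 ± 3.38 and 19.1 ± 3.87 CPM (SD, n = 4 each). The log2 difference was -0.04 (SE 0.16, 95% interval -0.38 to 0.31, adjusted p = 0.980, edgeR with Benjamini-Hochberg adjustment). Its sign also turned when single mice were left out (-0.17 to 0.094). Cysltr2 (ENSMUSG00000033470, chromosome 14 from 73029128 to 73049114) was far lower, at 2.085, 0.711, 0.738 and 0.517 CPM in SPM mice and 0.715, 0.608, 0.816 and 0.831 CPM in vehicle mice. SPM mouse 1 alone, with 45 of the 139 counts, was above the vehicle range. The same mouse had the highest summed TPM of the B cell list (1340 against 583 to 872 in the other 7), the T and NK cell list (74.9 against 24.3 to 41.0) and the dendritic cell list (193 against 92.6 to 133), and the part of these cells in the Cysltr2 value was not tested. With this mouse the log2 difference of Cysltr2 was 0.49 (SE 0.41, 95% interval -0.40 to 1.38, adjusted p = 0.846, edgeR with Benjamini-Hochberg adjustment), and without it -0.16.

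Ratios of TPM within a mouse do not depend on how libraries are scaled, but their level depends on the exon lengths used. Alox5ap per Alox5 was 26.4, 25.5, 26.6 and 30.6 in SPM mice 1 to 4 and 40.0, 33.5, 31.6 and 26.4 in vehicle mice 1 to 4. In 3 of the 4 vehicle mice the ratio was above every SPM mouse, and vehicle mouse 4 lay among the SPM mice. The geometric means were 27.2 and 32.5, a log2 difference of -0.26 (two-sided exact permutation test, p = 0.114, 0.457 after Benjamini-Hochberg adjustment over 4 ratios). Lta4h per Ltc4s, which sets the hydrolase branch against the glutathione branch, had geometric means of 1.499 in SPM and 1.34 in vehicle mice and ran from 0.891 to 2.78. Alox5 per Alox15 had means of 4.18 and 3.68, with a range of 3.06 to 6.67. Cysltr1 per Cysltr2 had means of 7.45 and 8.95, and SPM mouse 1, at 2.71, lay below the other 7 mice (6.64 to 11.8). These 3 ratios did not differ beyond the spread between mice (exact permutation test, adjusted p = 0.743 for each).

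**Figure D3:**
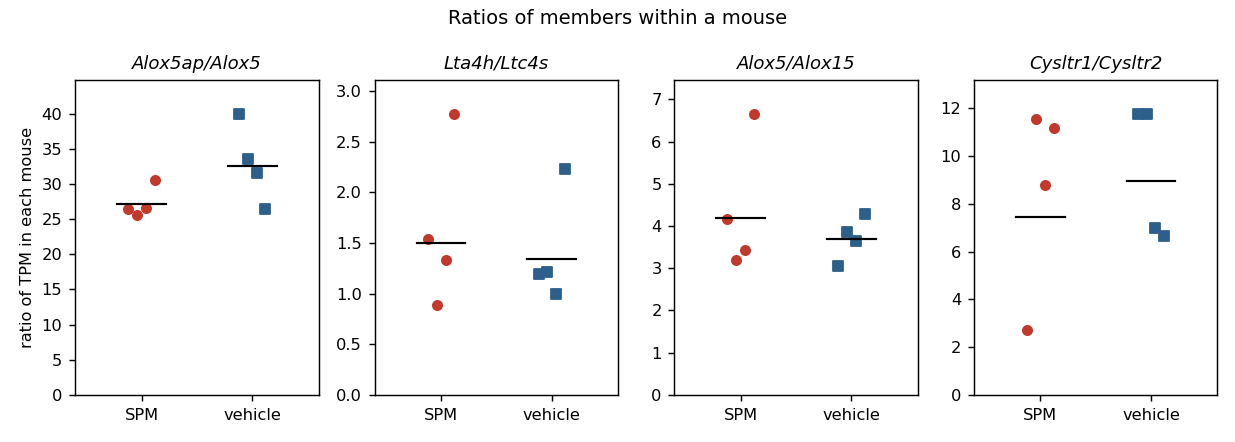
Ratios of deposited TPM in each SPM mouse (circles) and vehicle mouse (squares) for 4 pairs of genes, with lines at the geometric means and axes that start at 0. The Alox5ap to Alox5 ratio lies at 25.5 to 30.6 in SPM mice and 26.4 to 40.0 in vehicle mice, and the groups overlap for the other 3 ratios, although SPM mouse 4 is above the vehicle mice for Alox5/Alox15 (6.67) and SPM mouse 1 is below them for Cysltr1/Cysltr2 (2.71).

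Across mice, the pair with the largest r was Alox5 and Alox5ap, the enzyme and its activating protein. Over 8 mice their log2 CPM gave Pearson's r = 0.787 and Spearman's rho = 0.738 (exact permutation p = 0.0127 and 0.0458), and r was 0.836 within SPM and 0.875 within vehicle mice. Without the 2 mice farthest from the median of Alox5 (vehicle mice 1 and 3) r was 0.840. Alox5 and Alox15 gave r = 0.722 and rho = 0.881 (exact permutation p = 0.0431 and 0.00724), and r = 0.727 without those mice. Among the 21 pairs of the 7 genes with a mean of at least 1 CPM, 15 had a positive r, and 0 passed after Benjamini-Hochberg adjustment (exact permutation test, adjusted p = 0.266 and 0.321 for Alox5 with Alox5ap, 0.409 and 0.152 for Alox5 with Alox15). All pairs share the same 8 libraries, with their depth and cell makeup.

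The 7 genes were also set against the summed TPM of 11 cell type marker lists, giving 77 relations that were added after the values had been seen. Gene and list are shares of the same library here, and how often other genes relate to these lists as closely was not tested. Lta4h fell as the neutrophil list rose, in perfect reverse rank order over the 8 mice: r = -0.969 and rho = -1.0 (exact permutation p = 2.48e-05, the smallest the pairings can give, and 4.96e-05). After Benjamini-Hochberg adjustment over the 77 relations these were 0.00191 and 0.00382 (exact permutation test). Without vehicle mouse 2 and SPM mouse 3, the mice farthest from the median of the list, r was -0.907, and with each group's mean taken off it was -0.961. On TMM-normalized CPM for both, r had the same sign and was smaller, at -0.739. All 9 neutrophil genes had a fold change above 0, as had 10121 of the 21423 genes tested, and 2 of the 9 (beside 6.08% of all genes), the receptors Csf3r (log2 fold change 0.28) and Cxcr2 (0.37), had an unadjusted p under 0.05 in edgeR (0.0203 and 0.0393, adjusted p = 0.790 for both). Csf3r was separate between the groups in CPM, at 1762 to 2180 in SPM and 1530 to 1734 in vehicle mice, as were 3.83% of genes. Cxcr2 overlapped, and two-sided exact permutation tests gave p = 0.0286 for Csf3r and 0.143 for Cxcr2. The list summed to 60990 to 95410 TPM in SPM and 47730 to 78790 TPM in vehicle mice, so the groups overlapped in this sum.

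Alox15 was higher in mice with a higher eosinophil list, with r = 0.904 and rho = 0.952 (exact permutation p = 0.00146 and 0.00114, adjusted p = 0.0563 and 0.0439 over the 77 relations). The list summed to 23.2 to 45.1 TPM in SPM and 25.3 to 42.3 TPM in vehicle mice, SPM mouse 4 being lowest and SPM mouse 3 highest for both the list and Alox15 in TPM. Without SPM mouse 4 and vehicle mouse 1 r was 0.884, and on CPM it was 0.920. Most of the list's level was Ccr3, the eotaxin receptor (mean 24.6 TPM), since Epx, Ear1 and Prg3 had 3 to 7 counts each. Il5ra, the next gene of the list (mean 7.38 TPM), did not share the pattern: it was highest in SPM mouse 4 (9.43 TPM), where Alox15 was lowest (8.49 TPM), and lowest in vehicle mouse 3 (5.69 TPM), where Alox15 was 20.6 TPM. Prg2, with 99 counts in all, was highest where Alox15 was highest, in SPM mouse 3 (4.50 TPM) and vehicle mouse 3 (3.84 TPM). It was low in SPM mouse 4 (0.678 TPM) and lowest in vehicle mouse 1 (0.652 TPM), where Alox15 was 13.2 TPM. The relation therefore describes Alox15 with a sum made up mainly of Ccr3. Prg2, at low counts, largely followed Alox15, and Il5ra did not. Only Ccr3, Il5ra and Prg2 could be tested between the groups. Il5ra was past the unadjusted threshold in edgeR, with a log2 fold change of 0.41 (SE 0.14, adjusted p = 0.790 after Benjamini-Hochberg), and Ccr3 and Prg2 were not, beside 6.08% of all genes. Its groups overlapped (two-sided exact permutation test, p = 0.0571).

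Cysltr1 was most closely related to the monocyte list (r = 0.893, rho = 0.810, exact permutation p = 0.00409 and 0.0218), and Ltc4s with the resident macrophage list (r = 0.830, rho = 0.810, exact permutation p = 0.0116 and 0.0218). Neither passed after adjustment (exact permutation test, adjusted p = 0.105 and 0.178 for r). Without vehicle mice 1 and 3 r for Cysltr1 was 0.764. Like Cysltr1 in TPM, Fn1, Ccr2, Vcan and Ms4a4c of the monocyte list were highest in vehicle mouse 1 and lowest in vehicle mouse 3. F13a1 and Cx3cr1 shared this pattern in part. Ly6c2 did not, at 301 TPM in vehicle mouse 1 and 339 TPM in vehicle mouse 3. The monocyte list summed to 1368 to 1782 TPM in SPM and 1228 to 1991 TPM in vehicle mice, with 7 of 7 genes below 0 in fold change (11302 of the 21423 genes tested were) and 1, F13a1, at an unadjusted p under 0.05 in edgeR, beside 6.08% of all genes. The resident macrophage list summed to 317 to 414 and 345 to 472 TPM, with 5 of 8 genes below 0 and 2, Prg4 and Garnl3, at that level, again beside 6.08%. F13a1 was just separate in CPM, at 453 to 549.4 in SPM and 549.8 to 702 in vehicle mice, beside 3.83% of genes. Prg4 and Garnl3 overlapped. Two-sided exact permutation tests gave p = 0.0286 for F13a1, 0.171 for Prg4 and 0.0571 for Garnl3. With the mean of log2(TPM + 1) over the macrophage genes in place of their sum, most of which is Adgre1, r with Ltc4s was 0.574. Alox5 and Alox5ap had a positive r with the neutrophil list (0.781 and 0.732) and a negative r with the monocyte list (-0.758 and -0.728), the reverse signs of Lta4h, whose r with monocytes was 0.780. Without vehicle mice 1 and 3 the monocyte values were -0.428 for Alox5 and -0.527 for Alox5ap, and on CPM that of Lta4h was 0.470. Without vehicle mouse 2 and SPM mouse 3 the neutrophil values were 0.63 for Alox5 and 0.71 for Alox5ap. Alox5 also had a positive r with the eosinophil list (0.757), which was 0.816 without vehicle mouse 1 and SPM mouse 4. With all mice, on TPM, these relations had an unadjusted p between 0.0230 and 0.0358, and adjusted p = 0.215 for each (exact permutation test). Pla2g4a had r = -0.908 with the dendritic cell list, but r was -0.375 without SPM mice 1 and 4, so the relation rests on those mice. Of the 77 relations 13 had an unadjusted p under 0.05 for r, 1 passed after adjustment for r and 2 for rho (exact permutation test). No share over all genes stands beside these counts, so they do not set the pathway genes apart. The remaining lists, mast cell, platelet, B cell, T and NK cell, fibroblast and mesothelial, gave no relation that passed.

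**Figure D4:**
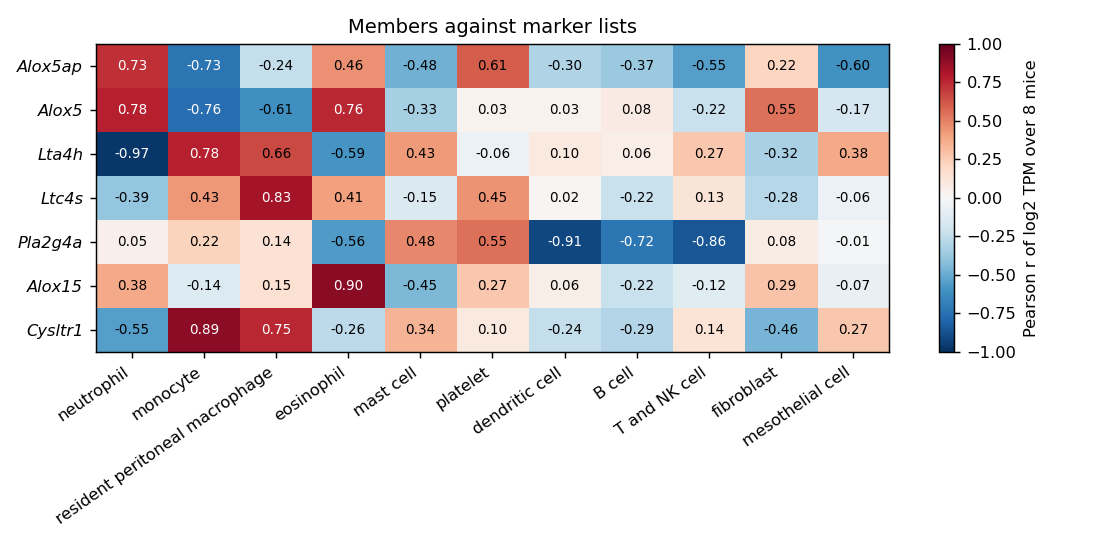
Pearson's r over 8 mice between log2 TPM of 7 genes (rows) and log2 summed TPM of 11 marker lists (columns), with red for positive and blue for negative values. The strongest cells are Lta4h with neutrophils (-0.97), Pla2g4a with dendritic cells (-0.91), Alox15 with eosinophils (0.90) and Cysltr1 with monocytes (0.89).

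**Figure D5:**
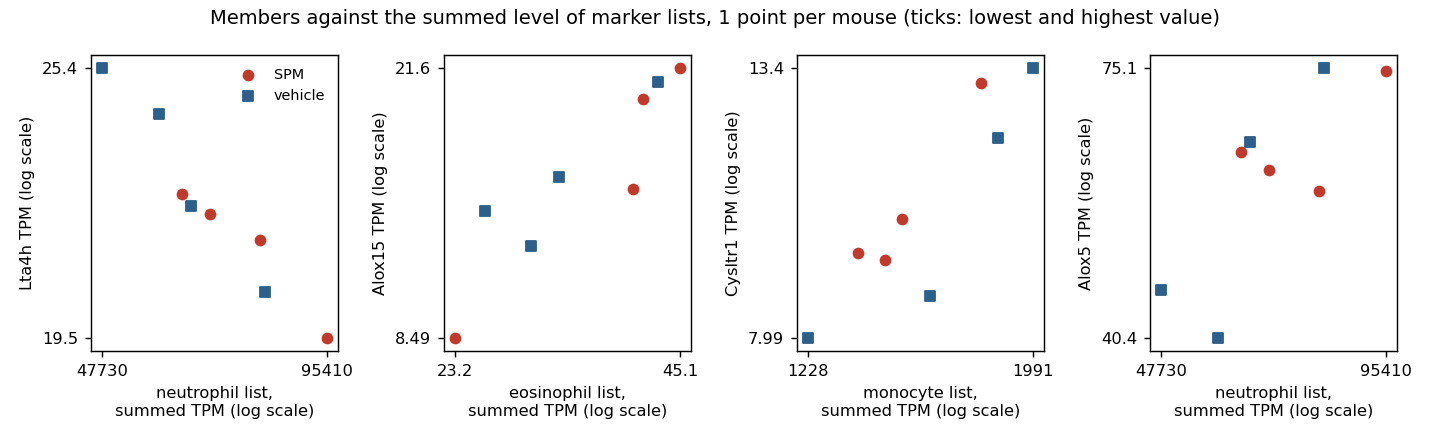
TPM of Lta4h, Alox15, Cysltr1 and Alox5 in each mouse against the summed TPM of the neutrophil, eosinophil, monocyte and neutrophil list, on log axes whose ticks mark the lowest and highest value. Lta4h falls from 25.4 to 19.5 TPM as the neutrophil list rises from 47730 to 95410 TPM, while SPM and vehicle mice are interleaved along the line.

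Genes whose pattern over the 8 mice was most like that of a pathway gene were sought among 9607 genes with a mean of at least 5 CPM, and are given as a description. Nearest to Alox5 was Mboat7 (r = 0.989), which puts arachidonic acid back into phosphatidylinositol, then Mgll (r = 0.985), monoacylglycerol lipase, and Tsc22d4 (r = 0.977). Alox5ap was most like Cdc34 (r = 0.983), a ubiquitin-conjugating enzyme, Ncf4 (r = 0.982), the p40phox subunit of the phagocyte oxidase, and Ifitm2 (r = 0.978). For Alox15 they were Cyp26a1 (r = 0.981), which degrades retinoic acid, Ifitm3 (r = 0.968) and the ATP-gated channel P2rx1 (r = 0.968). Lta4h was nearest to Hnrnpm (r = 0.989), an RNA-binding protein, Ociad1 (r = 0.982) and Commd1 (r = 0.972). Pla2g4a was nearest to Hnrnpll (r = 0.976), Abhd10 (r = 0.934) and Dync1li1 (r = 0.933), and Cysltr1 to Sh3kbp1 (r = 0.977), Kctd21 (r = 0.955) and Rin2 (r = 0.939).

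A further 31 genes of the pathway were listed by role, and 28 of them were tested. Of these 13 had a fold change above 0 and 15 below, with a median log2 fold change of -0.02, and 0 passed after adjustment (edgeR). Unadjusted, 3 of 28 had a p under 0.05 in edgeR, all lower after SPM dosing, beside 3.59% of all genes called lower and 2.49% called higher at that level. With DESeq2 the number was 1, beside 3.1% of 35056 genes. In edgeR it was also 1 without SPM mouse 1 (beside 1096 of 20845 genes), SPM mouse 3 (947 of 20975) or vehicle mouse 2 (1061 of 20943). Without vehicle mouse 3 it was 4 (beside 1472 of 20547). The 3 genes were Mgst3, a microsomal glutathione transferase (log2 fold change -0.70, SE 0.27), Pla2g4b, a further cytosolic phospholipase (-0.85, SE 0.36), and Pla2g5, a secreted phospholipase with 37 counts in all (-1.58, SE 0.70). Two-sided exact permutation tests gave p = 0.0571, 0.0571 and 0.0857, the groups overlapped for each, and each had an adjusted p of 0.790 (edgeR, Benjamini-Hochberg).

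The 2 most abundant genes of each role did not pass the test. In the list for release and re-esterification these were Pla2g7 at 689 TPM (log2 fold change -0.12) and Lpcat2 at 212 TPM (0.04). Pla2g7 is the platelet-activating factor acetylhydrolase, and a part of it in arachidonate release was not tested. For inactivation and export they were Cyp4f18, which hydroxylates leukotriene B4, at 225 TPM (0.03), and the leukotriene C4 exporter Abcc1 at 46.2 TPM (-0.13). Cotl1, which binds and stabilizes 5-lipoxygenase, was at 1469 TPM (-0.14), against a mean of 1754 TPM for Alox5ap. The high-affinity leukotriene B4 receptor Ltb4r1 was at 200 TPM (0.07), far above Cysltr1 and Cysltr2, whereas Ltb4r2 was at 0.340 TPM. The lipoxygenases Alox8 (0.516 TPM) and Alox12e (0.145 TPM) were also below 1 TPM, as was Alox12. None of the genes in this paragraph had an unadjusted p under 0.05 in edgeR.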

How the data were processed

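RNA was measured by poly(A) sequencing in exudate leukocytes of 8 mice, 4 per group, and groups were taken from the sample labels. The authors trimmed reads (Trimmomatic 0.36, per the submitters' processing notes), aligned them to GRCm38 with ERCC spike-ins (STAR 2.5.2b) and counted reads per Ensembl gene (featureCounts of Subread 1.5.2). The notes also name GRCm39, and the coordinates in the files are those of GRCm38. The annotation release and strand setting are not given in the sources used here. The deposited counts are raw, and the deposited TPM equal counts per gene length scaled per library, to within 5.0e-05. Spike-ins (92 rows) were left out. The 174 genes with an identifier and no symbol were kept.

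Genes with at least 10 counts in total (21423) were tested in R 4.3.3 with edgeR 4.0.16 (quasi-likelihood F test, TMM, no covariate) and Benjamini-Hochberg adjustment over all of them. Intervals are at 95%. Single values were tested with two-sided exact permutation tests, over 70 arrangements between groups and 40320 pairings for relations. These were written in Python 3.11.15 with numpy 2.4.6, and ranks were taken with scipy 1.17.1. Levels between genes were compared in TPM, with 0.1 added in the test of their order. Log2 CPM used a prior count of 2. DESeq2 1.42.0 (at least 1 count) and limma 3.58.1 on log2(TPM + 1), log2(TPM + 0.1) and genes averaging at least 1 TPM were alternatives, as were RLE factors, library size alone, filterByExpr, the mouse number as a block and each mouse left out. Counting error limits the low genes most.

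The members, the pathway and marker lists and the tests were chosen with earlier results of these data known. Named outside the members were, of the pathway list, genes with an unadjusted p under 0.05, the 2 highest in TPM of each role and Ltb4r1; for genes with a mean of at least 5 CPM the 3 most alike; and of each marker list the 2 highest. Relations with marker lists and their alternatives were added after seeing the data. Other marker genes named for a p, a low level, low counts or their pattern over mice were chosen after their values were seen.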

Additional observations from a re-analysis of the deposited data

Results flagged for a closer look

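Cysltr2 in SPM mouse 1, at 2.085 CPM, stood apart from the other SPM mice (0.517 to 0.738 CPM): the gap to the nearest was 0.859 of the group's range, above Dixon's 95% critical value for 4 samples. It rests on 45 counts. Of 28 groups examined in this way 1 stood out, where chance marks about 1 group in 20.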

How the results depend on the processing

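Of 168 values for the 10 genes under the alternatives, 149 kept the direction and the side of an unadjusted p of 0.05, 18 turned direction and 1 passed it (Alox5 without vehicle mouse 3). Cysltr1 turned to 0.014 with limma on log2(TPM + 1), 0.017 on log2(TPM + 0.1) and 0.014 above a mean of 1 TPM. Correlations of same-numbered mice were -0.07, 0.13, 0.19 and -0.01 over 12880 genes, and those of differently numbered mice ran from -0.18 to 0.14. SPM mice 2 and 3 were nearest to the vehicle mice of their own number. SPM mouse 1 was nearest to vehicle mouse 4, at 0.14, and SPM mouse 4 to vehicle mouse 1, at 0.02. Whether the mouse numbers pair the groups was not tested. With the number as a block, 1333 genes had an unadjusted p under 0.05 against 1303 without it, and Alox15 turned to -0.005. Blocked sign flips of the ratios Alox5ap/Alox5, Lta4h/Ltc4s, Alox5/Alox15 and Cysltr1/Cysltr2 gave exact p = 0.25, 0.625, 0.50 and 0.875, but with 4 pairs this test cannot reach 0.05 and says nothing about their stability. With every gene of at least 1 count edgeR called 160 genes after adjustment, 0 of them among the 10, and 2347 of 35063 at an unadjusted p under 0.05; the cause was not tested. Limma restricted to a mean of 1 TPM or more gave 799 of 14572 genes, where limma on log2(TPM + 1) gave 1194 of 21423, so fewer genes were tested. The further pathway genes at that level numbered 1 with DESeq2, beside 3.1% of 35056 genes, and 1 with limma on log2(TPM + 0.1), beside 1176 of 21423. Above a mean of 1 TPM the number was also 1, beside 799 of 14572 genes. That filter left out Pla2g4b (mean 0.417 TPM) and Pla2g5 (0.228 TPM), so this number does not show a change in them.

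When single mice were left out, genes at an unadjusted p under 0.05 numbered 816 (without vehicle mouse 1) to 1584 (without vehicle mouse 4), 0 to 1 of the 10 and 1 to 4 of the further pathway genes, the lowest without SPM mouse 1, SPM mouse 3 or vehicle mouse 2. Log2 fold changes ran from -0.031 to 0.35 for Alox5, -0.22 to 0.10 for Alox5ap, -0.17 to 0.28 for Alox15, -0.42 to 0.21 for Ephx2, -0.17 to 0.094 for Cysltr1, -0.16 to 0.71 for Cysltr2, -0.85 to -0.13 for Alox12, -0.59 to -0.02 for Ltc4s, -0.18 to -0.12 for Lta4h and -0.15 to -0.01 for Pla2g4a. Log2 differences of the ratios ran from -0.36 to -0.16 (Alox5ap/Alox5), -0.13 to 0.41 (Lta4h/Ltc4s), -0.041 to 0.31 (Alox5/Alox15) and -0.48 to 0.22 (Cysltr1/Cysltr2). Lta4h with the neutrophil list moved from r = -0.969 to -0.739 on CPM. Pla2g4a with the T and NK cell list went from r = -0.858 to 0.00556 without SPM mouse 1 and vehicle mouse 2. Alox12 could not be tested under filterByExpr or above a mean of 1 TPM, and its depth limits any statement on it.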
